A study of Mus musculus with 4 samples.

Results

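The 10 protein-coding genes Ahnak, Lpp, Plekho2, Dock10, Frmd8, Nrp2, Asph, Slco4a1, Vmp1 and Cadm1, of 21887 in the mouse annotation, were examined for MED1 occupancy in RAW 264.7 cells, an established macrophage-like line from mouse. They were chosen because large clusters of MED1 calls lie on them or have them as nearest gene. MED1 was mapped by ChIP-seq in cells stimulated with lipopolysaccharide (LPS) for 2 h (2 libraries) and in untreated cells (2 libraries). All libraries came from the same line, with no genetic change given in the labels. The LPS concentration is uncertain, being 10 ng/mL in the sample labels but 100 ng/mL in the protocol. Only 1 list of intervals was deposited, for the whole series, without heights or significance. The labels do not tie an interval to a library, nor state which libraries or groups the list was made from. LPS-stimulated and untreated cells could therefore not be compared, read depth is unknown, and no value below has an error between replicates.

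MED1 is a subunit of Mediator, the complex that joins transcription factors bound at enhancers to RNA polymerase II at promoters. Long stretches of dense Mediator occupancy are known as super-enhancers and in many cell types lie near genes that are highly transcribed or characteristic of the cell. The genes described here include some known for scaffold and cytoskeletal roles (Ahnak, Lpp, Dock10). Others have roles at the cell surface (Nrp2, Cadm1, Slco4a1) or in the endoplasmic reticulum (Vmp1, Asph). Plekho2 encodes a protein with a pleckstrin homology domain, and Frmd8 a FERM-domain protein that binds iRhom proteins. As a check of the cell type, MED1 regions overlapped all 10 macrophage marker genes examined and 1 of 4 T cell genes (Cd3d), and none of the 4 genes each of B cells, hepatocytes and neurons. The check is coarse, since a region overlapped 50.6% of all protein-coding genes. Covered lengths of the macrophage genes ran from 0.809 kb (Cebpb) to 24.6 kb (Spi1), against 1.31 kb at Cd3d. Occupancy is not expression, and the RNA of these cells was not measured here.

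A region here is a run of deposited intervals that abut each other, and a cluster is a set of regions separated by at most 12.5 kb. The 22570 regions formed 13554 clusters, of which the 677 with the largest covered length, the top 5%, are called large. Because the genes were selected on the size of their clusters, all cluster sizes, covered lengths, ranks and shares below are descriptions without a test, and the shares of all genes beside them are background only. All 10 genes were overlapped by a region, as were 50.6% of protein-coding genes, and all 10 by a large cluster, as were 5.46% of protein-coding genes. Their gene bodies held 70 regions, with 3 or more in 8 of the 10 genes, as in 6.64% of protein-coding genes, and 50 more lay outside them within 100 kb.

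Sequence is shown first for the places on which the descriptions turn. Of the 10 genes, 8 have annotated transcription starts in the RefSeq promoter table for GRCm38.p6, the assembly that mm10 names. Ahnak and Slco4a1 have their starts within wide regions of 33.3 and 37.0 kb, and the most upstream starts of Lpp and Vmp1 lie in narrow regions of 1.26 and 2.22 kb, far from the large clusters of these genes. The 250 bases before each of these starts are printed 5′ to 3′, with GGAA and its reverse complement TTCC, the core bound by ETS factors such as PU.1, in capitals.

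Ahnak, chr19:8989034-8989283, plus strand: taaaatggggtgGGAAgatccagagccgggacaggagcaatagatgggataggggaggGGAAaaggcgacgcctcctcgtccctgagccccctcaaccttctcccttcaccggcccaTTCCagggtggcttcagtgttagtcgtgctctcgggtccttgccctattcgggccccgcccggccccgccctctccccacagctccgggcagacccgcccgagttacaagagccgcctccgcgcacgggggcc
Slco4a1, chr2:180455995-180456244, plus strand: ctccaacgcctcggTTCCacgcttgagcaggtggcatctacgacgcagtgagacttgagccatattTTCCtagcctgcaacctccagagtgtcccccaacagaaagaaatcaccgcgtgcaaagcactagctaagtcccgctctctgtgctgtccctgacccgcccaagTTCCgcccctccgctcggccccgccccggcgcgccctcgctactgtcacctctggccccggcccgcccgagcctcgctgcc
Lpp, chr16:24393100-24393349, plus strand: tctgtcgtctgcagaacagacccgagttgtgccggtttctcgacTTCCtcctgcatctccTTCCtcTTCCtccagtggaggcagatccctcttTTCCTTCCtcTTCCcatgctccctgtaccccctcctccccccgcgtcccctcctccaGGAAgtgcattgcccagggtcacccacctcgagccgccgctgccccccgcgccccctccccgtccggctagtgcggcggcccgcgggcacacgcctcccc
Vmp1, chr11:86683837-86684086, minus strand: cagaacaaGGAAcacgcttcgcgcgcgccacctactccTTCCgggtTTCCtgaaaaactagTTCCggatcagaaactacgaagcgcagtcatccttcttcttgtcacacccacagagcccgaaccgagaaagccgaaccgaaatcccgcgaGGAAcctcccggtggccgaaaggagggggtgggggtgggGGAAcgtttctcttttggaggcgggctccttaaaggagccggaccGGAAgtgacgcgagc

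GGAA in either orientation occurred 3 times each before the Ahnak and Slco4a1 starts and 7 times each before the Lpp and Vmp1 starts. All 13 annotated starts of the 8 genes had at least 1 match in these 250 bases, as did 93.4% of all 32851 promoters in the table, so the match is common. The median was 3 matches per promoter over the whole table. TGANTCA, the AP-1 motif, was found before none of the 13 starts and in 6.75% of all promoters. TATAAA was likewise found before none of the 13, and in 12.4% of all promoters. A loose form of the NF-kB motif, GGG followed by any 5 bases and CC, was found before 8 of the 13 starts and in 45.8% of all promoters, and CANNTG, the E-box, before 6 of the 13 and in 66.2%. All motifs were searched on both strands, and an NF-kB match can overlap a GGAA match. The 13 sequences had a median GC content of 62.8% (40.8 to 72.4%) and a median of 18 CpG dinucleotides (1 to 32), against medians of 52.4% and 6 over all promoters. Of the 13 starts, 12 lay in a MED1 region and several belong to the same gene, while the background holds all promoters, covered or not. Whether these differences hold against covered promoters alone was not tested. The sequence with the lowest GC content belonged to the most downstream of the 3 Vmp1 starts. These matches describe the letters of the windows and do not show which factor was bound.

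A pair of microRNA genes lies inside these genes and within MED1 regions, and their mature sequences, from RefSeq (GRCm38.p6), are printed with the seed (bases 2 to 8) in capitals. Mir21a lies at the 3′ end of Vmp1 and yields miR-21, which is widely studied in inflammation. Mir28a lies within Lpp.

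mmu-miR-21a-5p, chr11:86584120-86584141, minus strand: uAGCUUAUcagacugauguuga
mmu-miR-21a-3p, chr11:86584082-86584103, minus strand: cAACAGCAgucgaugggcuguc
mmu-miR-28a-5p, chr16:24827868-24827889, plus strand: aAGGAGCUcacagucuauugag
mmu-miR-28a-3p, chr16:24827908-24827929, plus strand: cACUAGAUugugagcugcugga

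The 4 seeds all differ. The Mir21a hairpin (chromosome 11, 86584067 to 86584158) was wholly covered by a region of 36.5 kb made of 7 intervals. The Mir28a hairpin (chromosome 16, 24827855 to 24827940) was wholly covered by a region of 13.7 kb made of 1 interval. Mir1a-1 and Mir133a-2, microRNA genes of muscle that lie within 100 kb of Slco4a1, were not covered, with the nearest region 41.1 and 31.8 kb away.

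Coverage of the gene bodies differed widely among the 10 genes. Regions covered 97.7% of Slco4a1 (18.6 kb long), 96.4% of Plekho2 (27.5 kb) and 83.6% of Ahnak (87.7 kb). Coverage was 52.2% for Vmp1, 41.4% for Nrp2, 30.3% for Lpp, 29.7% for Dock10, 24.6% for Cadm1, 23.2% for Asph and 12.01% for Frmd8. Lpp, with 181.7 kb covered, had the longest covered length of all 21887 protein-coding genes, and Cadm1 (81.6 kb), Dock10 (76.6 kb) and Ahnak (73.3 kb) ranked 3, 4 and 5. Vmp1 (52.2 kb), Asph (51.1 kb) and Nrp2 (47.8 kb) ranked 18, 21 and 29. Plekho2 (26.5 kb) ranked 118 and Slco4a1 (18.2 kb) 260, both near the limit set by their length, and Frmd8 (2.92 kb) ranked 3213. The median was 51.6 kb over the 10 genes and 0.189 kb over all protein-coding genes. The 10 genes were all longer than the median of 17.2 kb, from Slco4a1 at 18.6 kb, little above it, to Cadm1 at 332.1 kb and Lpp at 599.2 kb. A long gene can hold more regions.

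**Figure D1:**
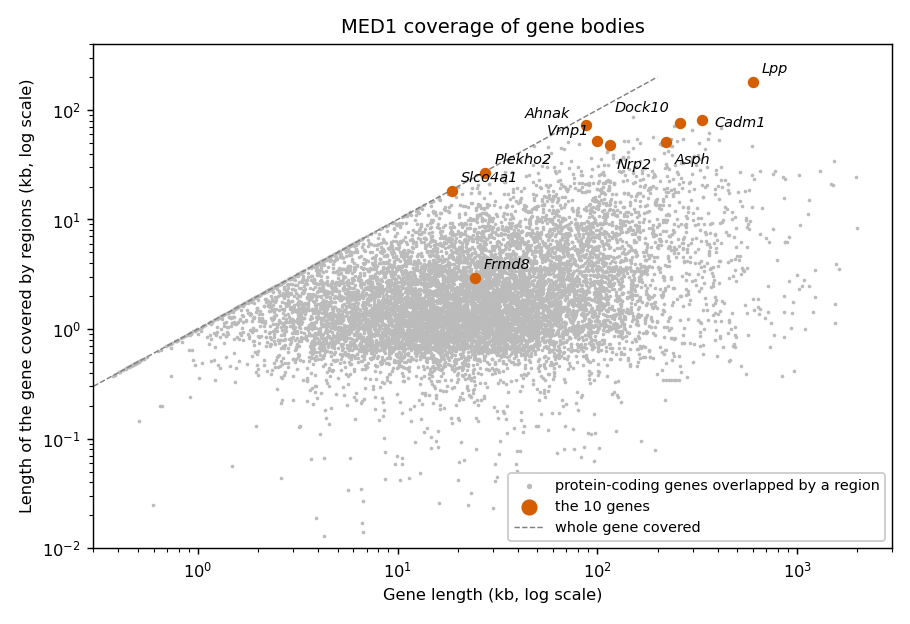
Length covered by MED1 regions (y axis, kb, log scale) against gene length (x axis, kb, log scale) for protein-coding genes overlapped by a region (grey points) and the 10 genes (orange points); the dashed line marks a gene covered from end to end. Slco4a1, Plekho2 and Ahnak lie close to the line, Lpp has the highest point with 181.7 kb, and Frmd8 lies within the grey cloud at 2.92 kb.

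The largest cluster overlapping each gene lay among the first 55 of 13554 by covered length. Ahnak had rank 1 (112.0 kb), Lpp 6 (79.6 kb), Plekho2 13 (64.1 kb), Dock10 14 (63.36 kb) and Frmd8 15 (63.35 kb). They were followed by Vmp1 at 18 (61.0 kb), Nrp2 at 20 (59.4 kb), Asph at 24 (57.6 kb), Slco4a1 at 52 (45.0 kb) and Cadm1 at 55 (44.9 kb). The last large cluster of the list covered 14.429 kb and the next one 14.427 kb, so the 10 genes were not near that limit. The share of the cluster span that was covered ran from 68.1% at Ahnak to 98.0% at Slco4a1 and 98.1% at Vmp1. In these 10 clusters, 25 of 46 gaps between neighbouring regions were shorter than 1 kb (54.3%), against 21.3% of the 9016 such gaps in all clusters. The widest gap within a cluster was 11.1 kb at Ahnak, and the nearest cluster left unjoined stood 13.2 kb away at both Nrp2 and Asph.

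**Figure D2:**
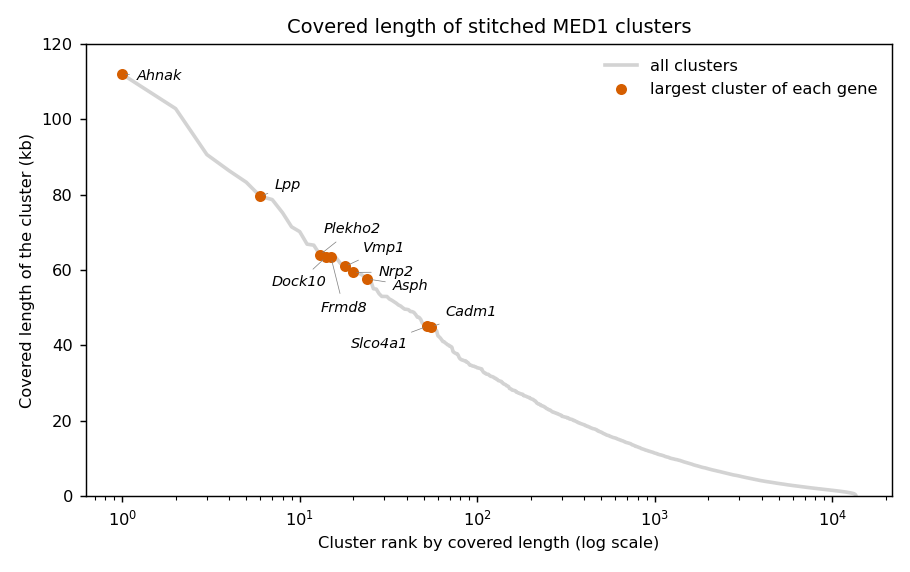
Covered length of every stitched MED1 cluster (y axis, kb) in order of rank (x axis, log scale), with the largest cluster of each of the 10 genes as an orange point. The genes fall in 3 stretches of the curve, with Ahnak at 112.0 kb and Lpp at 79.6 kb, then 6 genes between 57.6 and 64.1 kb, then Slco4a1 and Cadm1 near 45 kb.

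The clusters did not all lie on the gene they are named by. Those of Dock10 and Cadm1 lay wholly inside the gene, and more than 50% of the covered length was inside the gene at Asph (82.5%), Vmp1 (75.2%), Nrp2 (72.2%) and Ahnak (65.4%). The share inside the gene was 41.4% at Plekho2, 40.4% at Slco4a1 and 21.8% at the highest-ranking cluster of Lpp. At Frmd8 it was 3.13%, or 1.98 of 63.4 kb. Other protein-coding genes were overlapped by the cluster at 3 of the 10 genes, with 7 at Ahnak and 1 each at Plekho2 and Vmp1.

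Ahnak encodes a giant scaffold protein found beneath the plasma membrane (chromosome 19, 8989284 to 9076935, plus strand). It held 5 regions, and 9 of 10 equal parts of its body were covered by more than 50%. Its start lay within a region of 33.3 kb of 5 intervals (8971667 to 9004951). The other end of the gene lay within a region of 33.6 kb of 11 intervals (9050201 to 9083825), the highest interval number in or near the 10 genes. Between them lay regions of 13.4, 3.80 and 13.7 kb. Upstream, the cluster began at -69.7 kb from the start, with 5 further regions of 1.80 to 5.62 kb. It touched B3gat3, Rom1, Eml3, Mta2, Tut1, Eef1g and Scgb1a1. Eef1g, a translation elongation factor gene, was 96.8% covered, and the other 6 were covered by between 4.26% (Scgb1a1) and 30.1% (Rom1). The lncRNA genes Gm36629 (69.8% covered) and Gm10353 (23.3%) lay under the same cluster.

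Lpp encodes a LIM-domain protein of the zyxin family that is found at focal adhesions (chromosome 16, 24393350 to 24992578, plus strand). Its 24 regions were the largest number on any protein-coding gene, and they fell into 10 clusters, 4 of which were large. The region at its most upstream start measured 1.26 kb and overlapped the lncRNA gene Lppos. With the gene body divided into 10 equal parts, parts 1 to 3 were covered by 2.62, 4.84 and 0%. A cluster of 75.2 kb (rank 8) began in part 4 and included regions of 31.3 kb (7 intervals) and 30.4 kb (5 intervals). The next cluster, of 37.5 kb (rank 78), was made of 5 regions that each held 1 interval, from 3.30 to 15.4 kb wide. The second annotated start (24721855) was covered by no region and lay 2.10 kb from the first region of that cluster. Further on lay the region over Mir28a and a cluster of 21.9 kb (rank 283). The cluster of 79.6 kb (rank 6) ran from 569.0 to 674.9 kb downstream of the start, and its widest regions, of 26.4 and 29.96 kb, lay past the 3′ end of the gene. No other protein-coding gene lay within 100 kb of Lpp.

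Plekho2 encodes a protein with a pleckstrin homology domain (chromosome 9, 65552577 to 65580087, minus strand). It held 3 regions, and all of its 10 parts were covered by more than 50%. A region of 49.7 kb with 9 intervals (65521888 to 65571589), rank 2 of 22570 regions by width, covered most of the gene and extended past its 3′ end. Its start lay in a separate region of 7.54 kb. The cluster reached into Pif1, which encodes a DNA helicase and was 27.4% covered, and wholly covered the lncRNA gene Gm51712.

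Dock10 encodes a guanine nucleotide exchange factor (chromosome 1, 80501068 to 80758765, minus strand). Of its 10 regions, 7 formed the cluster of 63.4 kb, which lay between 91.1 and 158.2 kb from the upstream start. The cluster ended at a region of 3.35 kb that covered the second annotated start (80665352). The upstream start (80758553) lay in a region of 5.23 kb that was a cluster of its own, rank 3053. Parts 5 and 6 of 10 were covered by 96.6 and 96.9%, and the last 3 parts by 0%. No other protein-coding gene lay within 100 kb.

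Frmd8 encodes a FERM-domain protein that binds iRhom proteins and stabilises the protease complex that sheds TNF from the cell surface (chromosome 19, 5850974 to 5875269, minus strand). Its cluster lay downstream of it, over the lncRNA genes Malat1 (5795690 to 5802672) and Neat1 (5824708 to 5845480), both 100% covered. The cluster had 3 regions, of 2.13, 29.8 and 31.4 kb, and the last of these ended 1.98 kb inside the 3′ end of Frmd8. The start of Frmd8 lay in a separate region of 5.85 kb, rank 2652 among clusters, and the 8 parts of the gene between the first and last of 10 were not covered. The midpoints of the 2 regions that overlapped Frmd8 lay outside it. Frmd8 was the only protein-coding gene that the cluster touched.

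**Figure D3:**
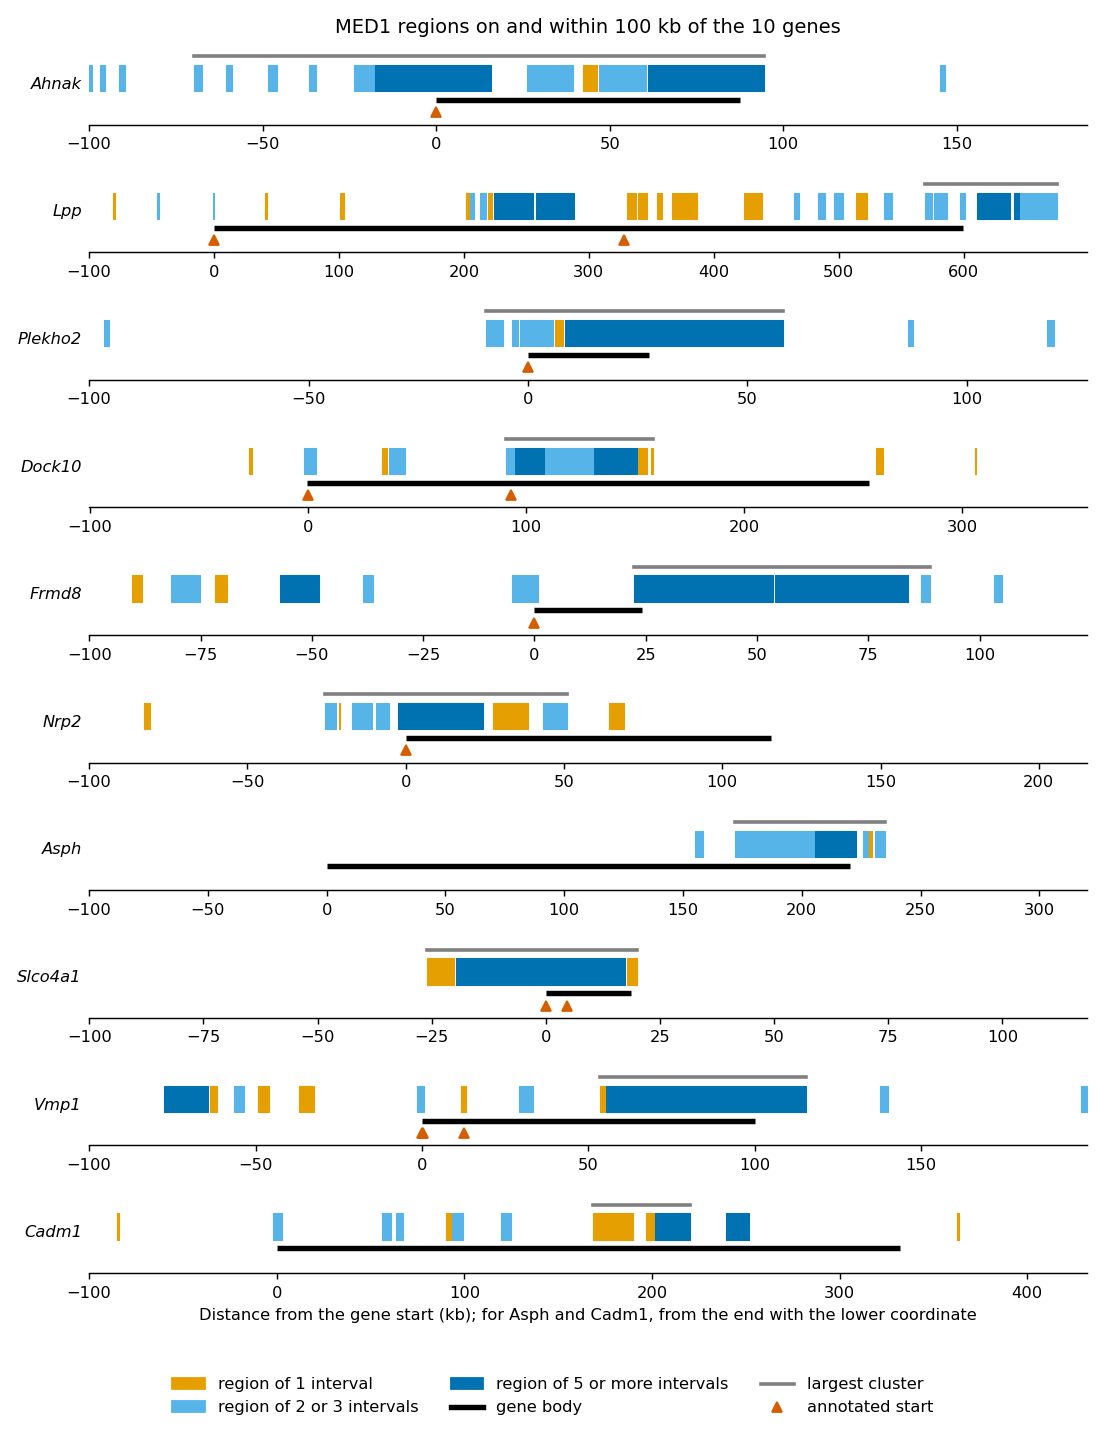
MED1 regions on and within 100 kb of each gene, drawn to scale in kb from its most upstream annotated start (triangles), or from the lower coordinate for Asph and Cadm1; blocks are regions coloured by number of intervals, the black line is the gene body and the grey line the largest cluster. The cluster covers the most upstream start at Ahnak, Plekho2, Nrp2 and Slco4a1, begins 53.4 kb into Vmp1 and 91.1 kb into Dock10, and lies beyond most of Frmd8.

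Nrp2 encodes neuropilin 2, a co-receptor for semaphorins and vascular endothelial growth factors (chromosome 1, 62703317 to 62818692, plus strand). Its start lay in a region of 26.7 kb with 7 intervals, and 5 regions of the same cluster, of 0.410 to 3.96 kb, lay upstream. Coverage was 100% in the first 2 of 10 parts, between 41.5 and 72.8% in the next 4, and 0% in the last 4. Of the covered length in the gene, 89.7% was in the first 5 parts, the largest such share among the 8 genes with a known strand. The lncRNA gene Gm29083, inside Nrp2, was wholly covered.

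Cadm1 encodes an immunoglobulin-type adhesion molecule (chromosome 9, 47530170 to 47862280). It held 10 regions in 6 clusters, 1 of them large. In order of coordinates, parts 6 and 7 of 10 were covered by 72.6 and 62.5% and the last 2 by 0%. Its widest region, of 21.7 kb (47698483 to 47720209), was a single interval and ranked 2 by width among the 7957 regions of that kind. A region of 4.34 kb lay over the end with the lower coordinate.

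Slco4a1 encodes an organic anion transporter (chromosome 2, 180456226 to 180474853, plus strand). A region of 37.0 kb with 7 intervals (180436632 to 180473648) held both annotated starts and most of the gene, and ranked 4 by width. The cluster began at -26.001 kb from the start with a single-interval region of 5.93 kb, and a region of 2.10 kb lay over the 3′ end. No other region lay within 100 kb, and the nearest other cluster stood 104.0 kb away.

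Vmp1 encodes a membrane protein of the endoplasmic reticulum that is needed to form autophagosomes (chromosome 11, 86583858 to 86683836, minus strand). Its 3 annotated starts were all covered, by regions of 2.22 kb (2 starts) and 1.31 kb, in a cluster of rank 4723. The large cluster lay 53.4 to 115.5 kb from the upstream start, over the 3′ part of the gene. The last 4 of 10 parts were covered by 96.5 to 100%, and 12.1% of the covered length was in the first 5. Its regions of 36.5 kb (7 intervals) and 18.6 kb (5 intervals) held Mir21a and the lncRNA genes Gm46289 and Gm51914, all wholly covered. The cluster also reached Tubd1, a tubulin gene that was 16.7% covered by it and a separate region.

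Asph encodes an aspartyl and asparaginyl hydroxylase of the endoplasmic reticulum and, from the same locus, the calcium-handling proteins junctin and junctate (chromosome 4, 9449085 to 9669344). Regions of 15.8, 16.9 and 17.3 kb lay next to each other over the end with the higher coordinate, and 3 smaller ones of 1.27 to 4.15 kb lay beyond it. The last 2 of 10 parts in order of coordinates were covered by 97.4 and 98.0%, and the first 7 by 0%. No region lay within 100 kb of the other end.

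**Figure D4:**
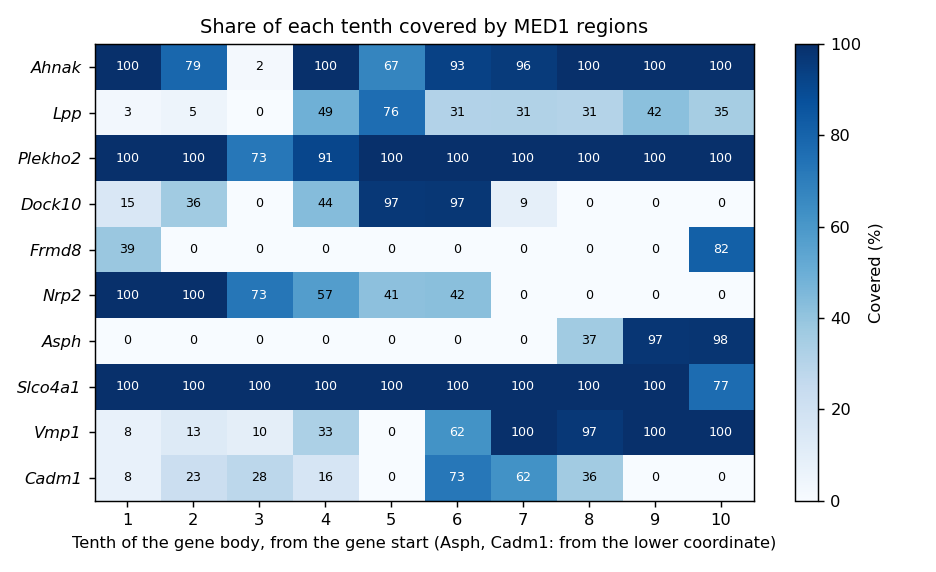
Percentage of each of 10 equal parts of the gene body covered by MED1 regions (colour and printed value), with genes in rows and parts in columns from the gene start, or from the lower coordinate for Asph and Cadm1. Plekho2 and Slco4a1 are covered throughout, Nrp2 at its start, Vmp1 towards its 3′ end, Dock10 in the middle and Frmd8 in its first and last part.

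Annotated starts were covered at all 8 genes that have one in the table, as at 42.8% of the 17492 protein-coding genes with one. Every annotated start was covered at 7 of the 8, Lpp being the exception, as at 39.5% of such genes. In 4 genes (Ahnak, Plekho2, Nrp2, Slco4a1) the most upstream start lay within the largest cluster. That was so for 4 of the 8 genes, and for 87.2% of the 935 protein-coding genes with an annotated start and a large cluster over them. In the other 4 (Lpp, Dock10, Frmd8, Vmp1) it lay in a separate region of 1.26 to 5.85 kb. At Dock10, however, the second annotated start (80665352) lay within the largest cluster. Starts other than the most upstream were not counted for the 935 genes. The 935 genes were not matched to the 8 genes for length, and a short gene can lie wholly within a cluster. Lpp (599.2 kb), Dock10 (257.7 kb) and Vmp1 (99.98 kb) are long, but Frmd8 (24.3 kb) is not. Nrp2 (115.4 kb) and Ahnak (87.7 kb) are also long and had the start within the cluster. The split was not used to choose the genes, but it rests on the same regions, and neither it nor the part of gene length was tested.

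The regions in these genes were wide and made of many intervals, features that follow in part from the choice of genes by covered length. Their median width was 5904 bp, against 1948 bp for all regions, and 24 of the 70 measured at least 10 kb, against 2.19% of all regions. All 10 genes were overlapped by a region of at least 10 kb, as were 2.18% of protein-coding genes. Regions of 5 or more intervals made up 15 of the 70 (21.4%), against 3.82% of all regions, and each gene had at least 1, as did 3.56% of protein-coding genes. Single-interval regions made up 24 of the 70 (34.3%), close to the 35.3% of all regions. They were unevenly spread, with 11 at Lpp, 3 each at Dock10 and Cadm1 and 0 at Frmd8 and Asph. They held 38.3% of the covered length at Lpp, 35.4% at Cadm1 and 33.2% at Nrp2, between 4.23% (Slco4a1) and 9.48% (Dock10) at the next 5 genes, and 22.2% over all regions. Of the 31 regions with 3 intervals, 25 had the middle interval as the widest, against 92.4% of all such regions, and the middle held a median of 62.1% of the width, against 78.5%. What distinguishes one interval from the next is not given in the sources used here.

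**Figure D5:**
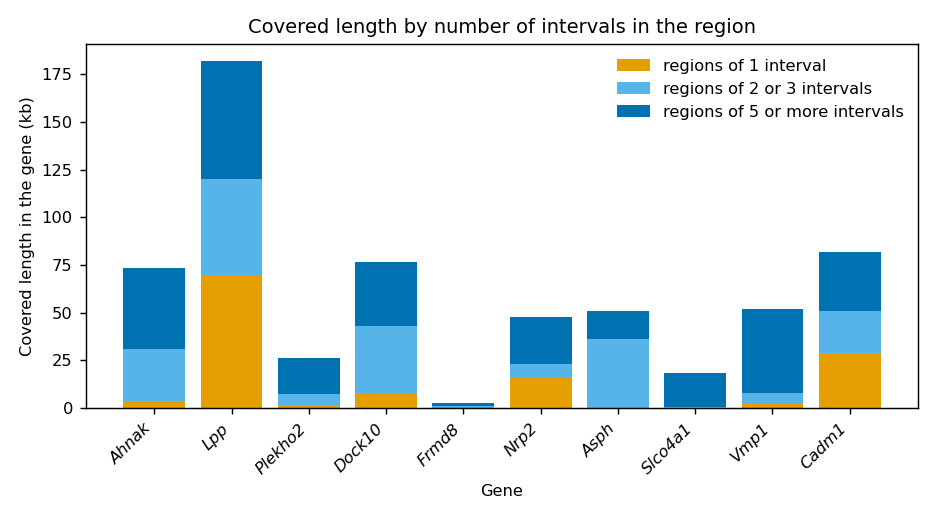
Covered length inside each gene (y axis, kb, from 0), stacked by the number of deposited intervals in the region. Single-interval regions account for 69.6 kb at Lpp and 28.9 kb at Cadm1, while regions of 5 or more intervals account for 44.3 of 52.2 kb at Vmp1.

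Paralogs and partners of the 10 genes were looked up for comparison, and 45 of 46 were found. A region overlapped 28 of them (62.2%), against 50.6% of all protein-coding genes, and a large cluster overlapped 4 (8.89%), against 5.46%. Their median covered length was 0.937 kb. The 4 were Plekho1 (10.5 kb, 100% covered, cluster rank 49), Frmd4b (35.6 kb, rank 87), Dock1 (17.6 kb, rank 600) and Dock8 (9.18 kb, rank 672). Among 10 relatives of Dock10, 9 were overlapped, with the longest covered length at Dock4 (20.2 kb) and none at Dock9. Dock10 itself had 76.6 kb covered. Of 9 transporter relatives of Slco4a1, 1 was overlapped (Slco2b1, 1.91 kb), against 18.2 kb covered in Slco4a1 itself. Nrp2 had 47.8 kb covered, against 1.58 kb at Nrp1. Cadm2 had 0.417 kb covered and Cadm3 and Cadm4 had none, and neither Asphd1 nor Asphd2 was overlapped. Of the zyxin family, Trip6 (4.58 kb) had the longest covered length and Wtip had none, and Ahnak2 had 6.75 kb covered. The relatives of Vmp1, Tmem41a, Tmem41b and Tmem64, had 0.718 to 1.51 kb each. Rhbdf2, which encodes the iRhom partner of Frmd8 in macrophages, had 13.5 kb covered, and Rhbdf1 1.08 kb.

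For each gene, the protein-coding gene with the most similar coverage over 10 equal parts was sought among genes of 0.5 to 2 times its length with at least 0.5 times its covered length. Likeness was the summed absolute difference of the covered fractions, from 0 to 10. The number of genes meeting these criteria ran from 0 for Lpp and 18 for Ahnak to 121 for Slco4a1 and 2091 for Frmd8. It depends on the length and covered length of each gene, so the differences are not comparable between genes. The covered length of a gene also includes any part of its large cluster that lies on it, and the genes were chosen for such clusters. Slco4a1 was closest to Oasl1 (0.018) and Plekho2 to Rasgef1b (0.296), both covered nearly from end to end. Frmd8 was closest to Tnfaip8l1 (0.066), with 2.60 kb covered. Nrp2 was closest to Ptprc (1.33) and Dock10 to Plcb4 (1.68). Asph and Cadm1 were compared in order of coordinates. Asph was also closest to Ptprc (0.685), and Cadm1 to Sgms1 (1.27). Vmp1 was closest to Itpkb (2.31, among 50 genes) and Ahnak to Irak2 (2.95, among 18).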

How the data were processed

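MED1 ChIP-seq libraries were made from RAW 264.7 cells stimulated with LPS for 2 h (2 libraries) and untreated (2 libraries), after fixation with DSG and formaldehyde, per the labels' protocols. Bowtie, SAMtools, MACS2 2.2.6 and mm10 are named in the submitters' processing notes, while peak-calling settings, a control library and pooling are not stated there or elsewhere in the sources used here. The list deposited for the series gives the positions of 53764 intervals. Its deposited score column holds 0 throughout. The planned comparison of LPS-stimulated with untreated cells was not made, and no counts were given, so depth and precision are unknown.

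Abutting intervals were joined, regions on chromosomes 1 to 19, X and Y were stitched within 12.5 kb, and an overlap of 1 bp counted. Gene positions, starts, strands and sequences came from RefSeq tables of GRCm38.p6, and coordinates are 1-based. Strand is taken from the promoter table; Asph and Cadm1 are described in coordinate order. Exons and introns were not told apart. The genes, lists and alternatives were chosen with earlier results of these data known. Named genes were the 10 genes, other genes under their clusters, noncoding genes inside them, the most similar gene each, and the most and least covered relatives, with further relatives added after their values were seen. Joining, stitching and overlap were tested on simulated data and against bedtools 2.31.1. Python 3.11.15, numpy 2.4.6, pandas 2.3.3 and matplotlib 3.10.9 were used. There were 0 columns of other samples.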

Additional observations from a re-analysis of the deposited data

How the results depend on the processing

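Under 13 alternatives, 38 of 42 counts stayed within 1.5 times the reported value. That limit is loose, and several of the counts are of genes overlapped by a region or large cluster, for which the genes were chosen. The 38 of 42 is therefore not a measure of how firm the results are. For example, the 120 regions inside or within 100 kb became 81 with single-interval regions left out, which is within the limit. The 70 regions inside the genes became 179 with intervals not joined and 46 with single-interval regions left out, and the 120 regions inside or within 100 kb became 343 with intervals not joined, changes that follow from what was counted. With the midpoint required within 1 kb of an annotated start, 4 of the 8 genes kept a region there instead of all 8. At Plekho2, Frmd8, Nrp2 and Slco4a1 the starts lay inside regions of 7.54, 5.85, 26.7 and 37.0 kb. The midpoints of these regions lay more than 1 kb from any annotated start of the gene. With the midpoint required inside the gene, 8 of 10 genes kept a region, without Frmd8 and Slco4a1. The 28 overlapped relatives became 22 under that rule. They became 19 with regions below the median width left out and 20 with single-interval regions left out. The number stayed at 28 with intervals not joined or merged within 500 bp. The share of all protein-coding genes was not recounted under these settings. All 10 genes kept a cluster in the top 5% when regions were stitched within 5 or 20 kb, when regions at starts, single-interval regions or regions below the median width were left out, and when ranked by span, and all 10 were within the top 1%. Ranked by number of regions, Frmd8, Slco4a1 and Cadm1 fell out of the top 5%. Stitched within 5 kb, the cluster of Ahnak covered 64.5 kb (rank 2), that of Cadm1 23.1 kb (rank 139), and Lpp had rank 1 (75.2 kb). The regions nearest the 100 kb limit lay 99.2 kb from Ahnak, inside it, and 100.7 kb from Plekho2, outside it. No paired analysis was possible because the deposited list holds no value per library, and for the same reason no replicate could be left out. With no heights or read counts, weak and strong occupancy within a region were not told apart.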

Other observations

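A pair of the genes had a further large cluster within 100 kb that did not overlap them. Upstream of Vmp1, a cluster of rank 194 had regions of 2.19 to 13.5 kb, of which the widest held 5 intervals and began at -77.6 kb from the most upstream start. Upstream of Frmd8, a cluster of rank 264 had 5 regions of 2.30 to 8.71 kb within 100 kb, and the widest of them held 7 intervals. The 2 regions within 100 kb of Cadm1 that were not on the gene measured 1.22 and 0.787 kb.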
